A study of Danio rerio with 4 samples.

Results

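The genes described here encode contractile and sarcomeric proteins of smooth and striated muscle, with their non-muscle relatives. They were chosen by symbol and a minimum count, with earlier results of these data known. Gene names of the deposited count table had to begin with a stem of the myosin, actin, troponin, tropomyosin, calponin or transgelin families. Stems of the desmin, alpha-actinin, creatine kinase, parvalbumin and related families were also taken. Each gene needed at least 10 counts summed over the libraries. Of the 14781 genes in the table, 69 met this rule; another 22 matched the names but had fewer counts. Just inside the count threshold were mylk3 with 10 counts and tnni2a.3, tnni2a.4 and myhc4 with 12 each, and just outside it was ckmt2b with 9. Messenger RNA had been sequenced from the whole gut of untreated adult zebrafish (Danio rerio), 2 homozygous and 2 heterozygous for the st95 mutation of irf8, a transcription factor gene required for macrophage development. Both genotypes carry at least 1 st95 allele, so no fish is wild type, and each library is 1 animal per the design text. Depth was 6389553 and 9351100 counts in homozygous fish 1 and 2, and 6350840 and 10391963 in heterozygous fish 1 and 2.

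Smooth muscle forms the outer wall of the gut and drives peristalsis. It contracts when calcium and calmodulin activate a kinase that phosphorylates the regulatory light chain of myosin, which then pulls on filaments of smooth muscle actin. Striated muscle of the trunk and heart is switched on through troponin and tropomyosin on sarcomeric thin filaments instead, and its isoforms of actin, myosin, troponin, parvalbumin and creatine kinase are encoded by separate genes. The muscle of the teleost gut wall is mainly smooth. Which cells the striated isoforms came from in these libraries was not tested.

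By symbol the 69 genes fell into 8 of smooth muscle, 39 of striated muscle, and a broad class of 22 that are widely expressed, non-muscle or of no assigned muscle type. This last class took every gene that the symbols did not place in the other classes, so it has no single muscle label. Its most abundant members per length were ckmt1 (mitochondrial creatine kinase), pvalb9 (parvalbumin), tagln2 (transgelin) and myl12.1 (light chain of non-muscle myosin). These are given as the broad class and not as muscle markers. All 10 listed markers of gut epithelium had enough counts to be tested. They took 6.75% and 6.97% of counts in the homozygous libraries, against 10.2% and 3.19% in the heterozygous libraries. Heterozygous fish 2 was the lowest library in 9 of the 10.

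The smooth muscle genes together took 0.293% of all counts in homozygous fish 1 (95% Clopper-Pearson interval 0.289 to 0.297) and 0.0419% in homozygous fish 2 (0.0406 to 0.0432). They took 0.0294% in heterozygous fish 1 (0.0281 to 0.0308) and 0.146% in heterozygous fish 2 (0.144 to 0.149). One fish of each genotype was thus high and the other low, and the genotypes overlapped. The striated genes took 0.0162% and 0.00412% in homozygous fish 1 and 2, against 0.00312% and 0.0413% in heterozygous fish 1 and 2, so heterozygous fish 2 was highest. The broad class was more even, at 0.384% and 0.410% in homozygotes and 0.383% and 0.219% in heterozygotes. Intervals cover counting error only. In whole-gut RNA, fewer muscle cells and less RNA per muscle cell cannot be told apart.

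**Figure D1:**
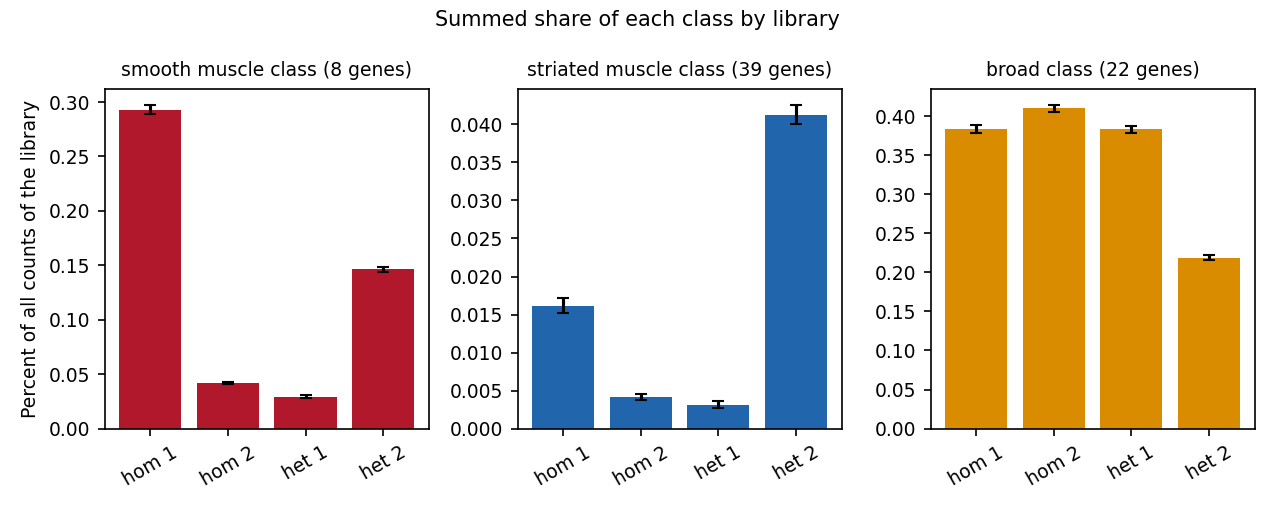
Bars give the summed percent of all counts of a library taken by the smooth muscle, striated muscle and broad classes (y axis, each panel with its own scale) in homozygous fish 1 and 2 and heterozygous fish 1 and 2; error bars are 95% Clopper-Pearson intervals. The smooth class stands at 0.293% in homozygous fish 1 and 0.146% in heterozygous fish 2, and under 0.05% in the others.

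Heterozygous fish 2 also stood apart in genes of other organs. A list of pancreas genes took 3.79% and 0.397% of counts in the homozygous libraries, against 1.21% and 26.8% in the heterozygous libraries, and liver genes took 0.0277% and 0.120%, against 0.0103% and 0.447%. With the counts of both lists set aside, the smooth muscle share was 0.305% and 0.0421% in homozygotes and 0.0298% and 0.201% in heterozygotes, so the order of the libraries was unchanged. The targeted gene irf8 had 3.70 and 2.31 CPM (counts relative to the scaled library size) in homozygotes, against 5.12 and 5.47 CPM in heterozygotes, which does not by itself check the genotype, since the allele need not remove the transcript. No member lies on the chromosome of irf8 (0 of 69 on chromosome 18).

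acta2 encodes smooth muscle alpha-actin, the thin filament actin of visceral and vascular smooth muscle (chromosome 12, 16978609 to 16993856, plus strand, 9 exons in danRer10). It had 8519 and 1733 counts in homozygous fish 1 and 2, against 712 and 7134 in heterozygous fish 1 and 2, which is 1261 and 159.9 CPM against 122 and 780.5 CPM. Homozygous fish 1 and heterozygous fish 2 were high and the genotypes overlapped. tagln encodes transgelin (SM22), an actin-binding protein of smooth muscle (chromosome 15, 582941 to 590374, minus strand, 5 exons). It had 837 and 71.6 CPM in homozygotes, against 80.7 and 367 CPM in heterozygotes, the same high and low fish. Per kilobase of exon, tagln and acta2 were the most abundant smooth muscle genes, with means over the libraries of 439 and 367 CPM per kilobase.

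Of the genes of the smooth muscle motor, myh11a and myl9a followed the same fish and myl9b did not. myh11a, the smooth muscle myosin heavy chain gene (chromosome 6, 8264326 to 8345319, minus strand, 41 exons), had 178 and 43.4 CPM in homozygotes, against 31.6 and 166 CPM in heterozygotes. myl9a, a regulatory light chain gene (chromosome 23, 42920814 to 42930752, plus strand), had 254 and 34.2 CPM, against 36.0 and 126 CPM. In both genes the lowest and the next lowest library came from different genotypes. myl9b, its paralog (chromosome 6, 1652141 to 1664191, plus strand), differed less between fish, with 24.6 and 25.1 CPM in homozygotes and 14.9 and 44.5 CPM in heterozygotes.

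The filament and regulatory genes were less alike. desmb, a gene for desmin, the intermediate filament of muscle (chromosome 6, 13742204 to 13762270, minus strand), had 195 and 20.7 CPM in homozygotes, against 6.83 and 141 CPM in heterozygotes. Its paralog desma had 7 and 1 counts in homozygotes, against 0 and 79 in heterozygotes. Heterozygous fish 2 held 88.4% of its CPM summed over the fish. That was near the median of the striated class (86.9%) and far from that of the smooth class (37.2%). The count threshold partly fixes this likeness, since desma met it only through heterozygous fish 2. So did 23 of the 35 striated genes other than the alpha-actin genes. The place of desma in the smooth class rests on its symbol. cald1a, the gene for caldesmon, an actin-binding brake on the actomyosin ATPase (chromosome 4, 7406767 to 7494816, plus strand), had 19.99 and 6.46 CPM, against 27.5 and 29.9 CPM. It was the only one of the 7 tested smooth muscle genes whose homozygous fish were both under the heterozygous fish, and in 0 of the 7 were both over them (19.3% and 19.9% of all tested genes).

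**Figure D2:**
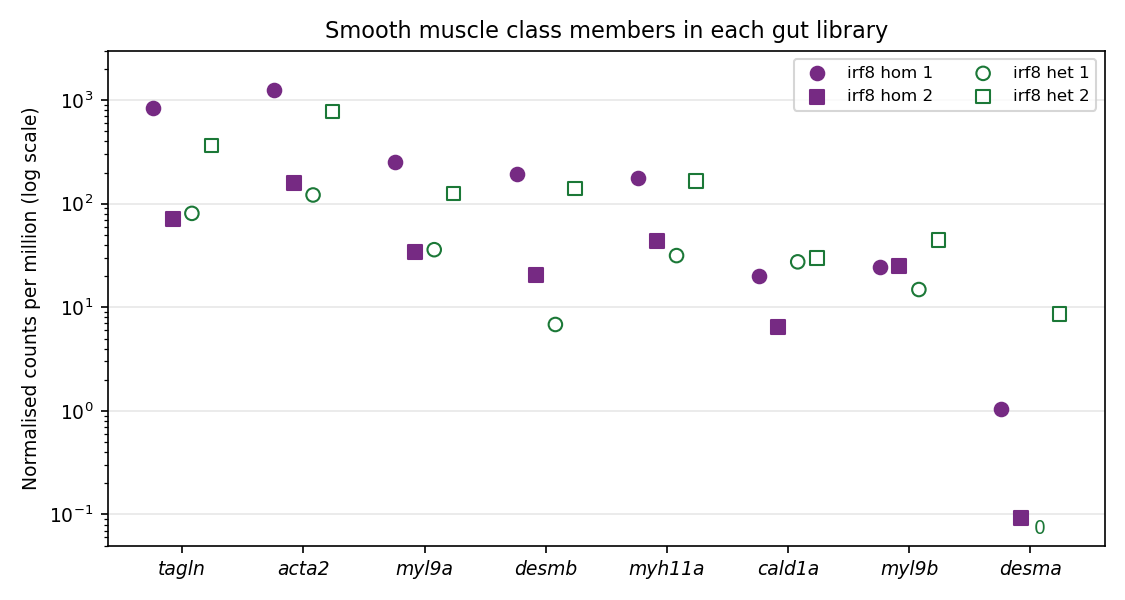
Points give the normalised CPM (log scale) of each smooth muscle class gene in homozygous fish 1 and 2 (filled) and heterozygous fish 1 and 2 (open); desma had 0 counts in heterozygous fish 1, written as 0. For tagln, acta2, myl9a, desmb and myh11a, homozygous fish 1 and heterozygous fish 2 lie above the others, so the genotypes overlap.

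No smooth muscle gene passed an adjusted p of 0.05 (edgeR's quasi-likelihood test, adjusted by Benjamini and Hochberg over 9701 genes), and neither did any other gene (0% called); 628 of them, 6.47%, had an unadjusted p under 0.05, and DESeq2's Wald test called 0.34% higher and 0.258% lower, 0 of them members. The log2 fold change of homozygotes over heterozygotes was 1.02 ± 1.24 (SE) for tagln, with means of 454 ± 541 CPM and 224 ± 202 CPM (SD, n = 2 each) and an edgeR adjusted p of 0.829. For acta2 it was 0.66 ± 1.22, with 711 ± 779 CPM in homozygotes and 451 ± 466 CPM in heterozygotes (edgeR adjusted p = 0.902). The SD of the homozygotes was larger than the difference between the means in both genes, and so was that of the heterozygotes in acta2. The value was 0.83 ± 1.03 for myl9a, 0.54 ± 1.48 for desmb and 0.16 ± 0.97 for myh11a. It was -0.26 ± 0.56 for myl9b and -1.12 ± 0.58 for cald1a. Of the 7, 5 were higher and 2 lower in homozygotes, with a median of 0.54, where the median over all tested genes was -0.05 and 46.7% of them were higher and 53.3% lower. desma did not pass the filter on low counts.

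The sign of this median rested on single fish. Without homozygous fish 1, 0 of these 7 genes were higher and the median was -1.46, and without heterozygous fish 1, 2 were higher and the median was -0.36. Without heterozygous fish 2, 6 of the 7 were higher and the median was 1.99, and without homozygous fish 2 it was 1.40. acta2 moved between -1.46 and 2.54 over these fits. No smooth muscle gene was called in any of them.

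**Figure D3:**
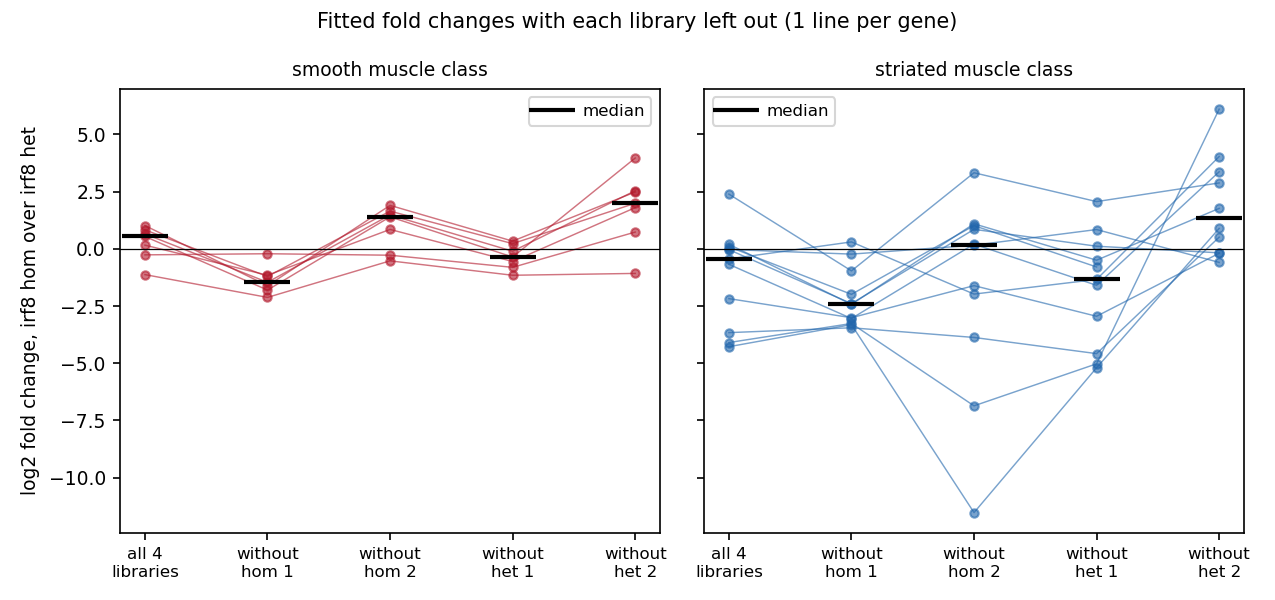
Each line follows 1 tested gene of the smooth (left) or striated (right) class; the y axis is the fitted log2 fold change of homozygous over heterozygous fish with all libraries and with each library left out, and black bars are medians. The smooth median stands at 0.54 with all libraries, -1.46 without homozygous fish 1 and 1.99 without heterozygous fish 2.

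The 2 fish of a genotype differed more in these genes than the genotypes did. Between the heterozygous fish, fish 2 over fish 1, the CPM ratio was 6.42 for acta2, 4.54 for tagln, 5.25 for myh11a, 3.49 for myl9a and 20.6 for desmb. Between the homozygous fish, fish 1 over fish 2, it was 7.89 for acta2, 11.7 for tagln, 4.11 for myh11a, 7.43 for myl9a and 9.44 for desmb. The exceptions were cald1a, at 1.09 between heterozygotes, and myl9b, at 0.979 between homozygotes. Over smooth muscle genes with counts in both fish the median ratio was 4.54 between heterozygotes (7 genes). It was 7.66 between homozygotes (8 genes, among them desma with only 7 and 1 counts). Over all genes with counts in both fish it was 1.06 between heterozygotes (10661 genes) and 1.02 between homozygotes (10897 genes). Scaling of the libraries holds such a median near 1, so it does not show how much single genes differ between fish. The direction of each ratio was taken after the values were seen. Homozygous fish 1 and heterozygous fish 2 both lay above the other 2 fish in 6 of 8 smooth, 10 of 39 striated and 8 of 22 broad genes, and in 18.1% of all 11361 genes with at least 10 counts; this grouping of fish was chosen after the values were seen and is a description.

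**Figure D4:**
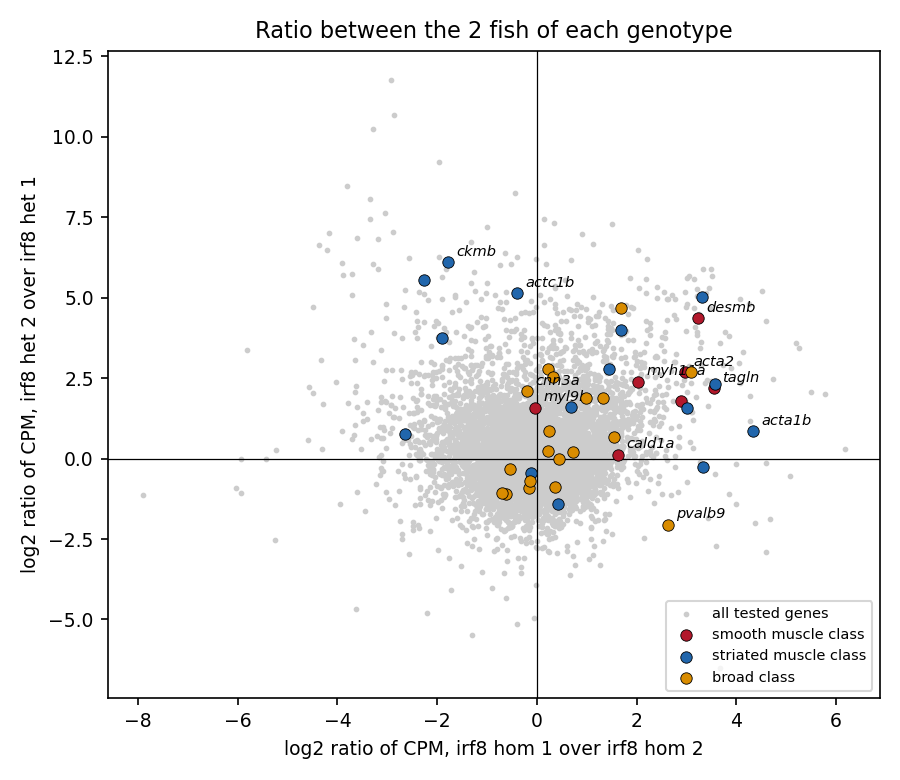
Each point is a gene with counts in all 4 fish; the x axis is the log2 CPM ratio of homozygous fish 1 over homozygous fish 2 and the y axis that of heterozygous fish 2 over heterozygous fish 1, with all tested genes in grey. acta2, tagln, myl9a, myh11a and desmb lie at the upper right, with ratios of 3.49 or more on both axes, while ckmb and actc1b are high on the y axis alone.

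Some lists of other cell types had the same high fish and others did not. Of the pancreas list, 13 of 14 genes were higher in homozygous fish 1 and heterozygous fish 2 than in both other fish, as were 3 of the 4 enteric neuron genes with at least 10 counts. This held for 0 of the 10 liver genes and 0 of the 10 gut epithelium genes. The 6 listed enteric neuron genes summed to 198 and 68 counts in homozygotes, against 29 and 351 in heterozygotes, or 29.3 and 6.27 CPM against 4.95 and 38.4 CPM. Of these, vip2, a gene for vasoactive intestinal peptide, a relaxing transmitter of enteric neurons, had 25.3 and 5.72 CPM, against 3.93 and 31.1 CPM. Of the 7 listed fibroblast and endothelial genes 1 had this pattern, and they summed to 134 and 91.4 CPM in homozygotes and 159 and 713 CPM in heterozygotes. The part of these cell types in the smooth muscle values was not tested.

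Relative to acta2 in the same library, the smooth muscle genes kept some proportions and not others. Per kilobase of exon, tagln stood at 136% and 91.6% of acta2 in homozygous fish 1 and 2, against 136% and 96.2% in heterozygous fish 1 and 2. myl9a stood at 40.0% and 42.5%, against 58.9% and 32.0%, and myh11a at 3.15% and 6.05%, against 5.80% and 4.74%. While acta2 itself spanned 122 to 1261 CPM, these 3 ratios varied far less between fish. cald1a stood at 1.37% and 3.48% in homozygotes, against 19.5% and 3.30% in heterozygotes, and desmb at 13.4% and 11.2%, against 4.86% and 15.6%. Heterozygous fish 1 was the library that stood out in both, high for cald1a and low for desmb. For myl9b, at 1.18% and 9.52% in homozygotes, against 7.41% and 3.46% in heterozygotes, homozygous fish 1 was lowest.

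The striated class holds 4 alpha-actin genes named for skeletal (acta1a, acta1b) and cardiac (actc1a, actc1b) muscle. Their coding sequences are close to each other and to acta2, and the counting command did not ask for reads that map to several places, so the split of reads among these genes is uncertain. acta1b (chromosome 13, 24148611 to 24153987, plus strand) had 638 and 51 counts in homozygotes, against 39 and 110 in heterozygotes, or 94.5 and 4.71 CPM against 6.66 and 12.0 CPM. Homozygous fish 1 alone was high. acta1a had 26.2 and 2.21 CPM, against 4.10 and 20.2 CPM, and actc1a had 10.1 and 1.02 CPM, against 0.512 and 16.7 CPM. Both had the same 2 high fish as acta2. The 4 alpha-actin genes made up 87.5% of striated counts in homozygous fish 1 and 33.2% in homozygous fish 2, against 40.4% and 28.5% in heterozygous fish 1 and 2.

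The other 35 striated genes were high in heterozygous fish 2. They summed to 129 and 257 counts in homozygous fish 1 and 2, against 118 and 3069 in heterozygous fish 1 and 2, which is 0.00202% and 0.00275% of counts against 0.00186% and 0.0295%. Heterozygous fish 2 was the highest library in 28 of the 35, and in 22 it held over 75% of the CPM summed over the fish. The count threshold partly fixes these numbers, since 23 of the 35 had under 10 counts in the other fish together and entered through heterozygous fish 2. Of the remaining 12 it was highest in 7, where it was highest in 31.4% of all genes with at least 10 counts. In 5 genes both homozygous fish had 0 counts, and in 3 of the 35 every count came from heterozygous fish 2. In homozygous fish 1 and 2, 15 and 10 of the 35 genes were at 0, against 16 and 0 in heterozygous fish 1 and 2. The threshold partly fixes these zeros too, since 23 of the 35 entered through heterozygous fish 2. Of all 11361 genes with at least 10 counts, 375 and 164 were at 0 in homozygous fish 1 and 2. In heterozygous fish 1 and 2 it was 674 and 33. The limit for such a gene (3 counts) is 0.444 CPM in homozygous fish 1, 0.277 CPM in homozygous fish 2 and 0.512 CPM in heterozygous fish 1, and expression under it was not detectable at this depth.

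Genes of fast skeletal muscle made up most of that signal. mylpfa, the fast regulatory light chain gene (chromosome 3, 32681334 to 32686822, minus strand, 7 exons), had 0 and 54 counts in homozygotes, against 8 and 916 in heterozygotes. ckma, a muscle creatine kinase gene (chromosome 5, 36231934 to 36237642, minus strand), had 1 and 21 counts, against 0 and 349, and its paralog ckmb (chromosome 15, 23708457 to 23710545, minus strand) had 2 and 11, against 3 and 321. tnnt3b, a fast troponin T gene (chromosome 7, 39173856 to 39189346, plus strand), had 0 and 7 counts, against 1 and 246. After heterozygous fish 2, homozygous fish 2 was highest for these 4 genes. The fast troponin I gene tnni2a.1 had 0 and 6 counts, against 2 and 138, and the fast troponin C gene tnnc2 had 1 and 6, against 6 and 127. myl1, a fast essential light chain gene, had 0 and 1 counts, against 0 and 61, and mylz3, another light chain gene of fast muscle, had 39 and 23, against 26 and 280. Of these 8 genes only mylz3 had more than 10 counts in every library.

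Of the heart muscle and troponin T genes named here, some were highest in heterozygous fish 2 and others were not. myl7, the cardiac regulatory light chain gene, had 1 and 5 counts in homozygotes, against 0 and 55 in heterozygotes. vmhc, the ventricular myosin heavy chain gene, lies outside the name rule and was named here after its values were seen; it had 0 and 8 counts, against 0 and 196. In contrast tnnt2a, the cardiac troponin T gene, had 15 and 18 counts, against 17 and 10, and tnnt2d, another troponin T gene, had 25 and 4, against 13 and 17. tnnt2e had 0 and 0 counts, against 7 and 6. Heterozygous fish 2 was highest for myl7 and vmhc and not for these troponin T genes, which had at most 25 counts in a library. Heterozygous fish 2 was also highest for actc1a and actc1b, actin genes named for cardiac muscle. The name alone does not place their reads in the heart, and the split of reads among the alpha-actin genes is uncertain. Of the pair, actc1a had 68 and 11 counts in homozygotes, against 3 and 153 in heterozygotes, and actc1b had 20 and 42, against 14 and 773. Pancreas and liver genes were highest in heterozygous fish 2, as given above, and the part of other organs in the striated values was not tested.

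By edgeR's quasi-likelihood test 0 of the 11 tested striated genes were called, and adjusted p-values ran from 0.699 to 0.994. actc1b (chromosome 17, 117120 to 122689, minus strand, 8 exons) had 20 and 42 counts in homozygotes, against 14 and 773 in heterozygotes, a log2 fold change of -3.66 ± 1.47 (SE). Its edgeR adjusted p was 0.699, and it was the 1 member of 38 tested with an unadjusted p under 0.05, against 6.47% of all tested genes. The fold changes were -4.28 ± 2.11 for mylpfa, -4.09 ± 2.14 for ckma, -2.17 ± 0.999 for mylz3 and 2.39 ± 1.26 for acta1b. Of the 11 genes 3 were higher and 8 lower, with a median of -0.44. The filter asks for at least 10 counts, scaled to library depth, in at least 2 libraries. So 28 striated genes that were high in 1 fish or low throughout were not tested, and this median does not describe them. In 0 of the 11 did the genotypes separate in either direction, against 19.9% (homozygotes over) and 19.3% (under) of all tested genes. Among the untested striated genes, myl10, tnnc2, tnnt3a, tnni1d, pvalb1, pvalb2, tnni2a.4, tnnt2e and actn3a had both homozygotes under both heterozygotes, at low counts. In the other untested striated genes the genotypes overlapped, so the 0 of 11 holds for the tested genes only.

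Without heterozygous fish 2 the log2 fold change of actc1b was 0.51 and that of mylpfa 0.89, while ckma had 0 counts in the remaining heterozygote and its fitted value is no measure of size. Those of mylz3 and acta1b were -0.19 and 2.88. Without heterozygous fish 1, where heterozygous fish 2 is the lone heterozygote and is assumed to vary like the homozygotes, edgeR called actc1b (-4.58, adjusted p = 0.0209) and ckmb (-5.58, adjusted p = 0.0402). Over the alternatives the adjusted p of actc1b (edgeR, and DESeq2 in 1 of them) ranged from 0.0209 to 0.999. That of ckmb, which did not pass the main filter on low counts and was tested only under other filters or with a library left out, ranged from 0.0402 to 0.999 (edgeR). Both genes are in the authors' deposited table of 76 genes and are the only members there. That table does not name which genotype its folds are over. The authors' deposited table gives actc1b a log2 fold change of -3.81 with an FDR of 0.0277 and ckmb -4.94 with an FDR of 0.0363. Their counts in homozygotes lay within 2 to 42, close to the 3 to 14 of heterozygous fish 1, and apart from the 321 and 773 of heterozygous fish 2.

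Broad class genes ranged from even between fish to strongly uneven. ckmt1 (chromosome 25) had 1275 and 1949.6 CPM in homozygotes, against 1984 and 931 CPM in heterozygotes. myh9a, the gene of a non-muscle myosin heavy chain, had 127 and 206 CPM, against 277 and 132 CPM, and actn4, an alpha-actinin gene of non-muscle cells, had 147 and 213 CPM, against 212 and 168 CPM. In all 3 the genotypes overlapped. cnn2, a calponin gene, was nearly level, at 80.8 and 59.3 CPM in homozygotes and 62.5 CPM in both heterozygotes. pvalb9 varied most among the abundant genes, with 778 and 126 CPM, against 212 and 51.1 CPM, and homozygous fish 1 was highest. It had the largest positive fold change of the class, at 1.78 ± 1.07 (SE), with an edgeR adjusted p of 0.706 and a value of -0.038 without homozygous fish 1.

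Some broad class genes followed the smooth muscle genes. myl6, the essential light chain gene of smooth and non-muscle myosin, had 104 and 12.2 CPM in homozygotes, against 10.9 and 71.1 CPM in heterozygotes. tpm1, a tropomyosin gene of muscle and other cells, had 137 and 54.2 CPM, against 27.1 and 101 CPM. actn1, another alpha-actinin gene, had 38.1 and 19.1 CPM, against 15.4 and 56.6 CPM. Each had homozygous fish 1 and heterozygous fish 2 on top, as acta2 did. Of the other tropomyosin genes, tpm2 had these fish on top too, with 17.3 and 14.9 CPM, against 6.49 and 44.4 CPM, though its homozygotes were close. tpm4a also had these fish on top, with 46.5 and 15.96 CPM, against 30.6 and 48.9 CPM. tpm3 did not, with 207 and 229 CPM, against 399 and 246 CPM. Neither did tpm4b, with 1.04 and 0.83 CPM, against 1.54 and 8.86 CPM.

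In the broad class 0 of 20 tested genes were called, of which 7 were higher and 13 lower (median log2 fold change -0.32). The homozygous fish were both under the heterozygous fish in 5 genes (tpm3, cnn3a, tpm4b, pvalb6 and pvalb7) and both over them in 1 (cnn3b). Over all 38 tested members that makes 6 below and 1 above, where 19.3% of all tested genes lay below and 19.9% above. Members that were not tested are left out of these numbers. cnn3a, a calponin gene, had 8.74 and 10.1 CPM in homozygotes, against 10.8 and 46.2 CPM in heterozygotes, a fold change of -1.60 ± 0.71 that was -0.20 without heterozygous fish 2. tpm4b had 7 and 9 counts, against 9 and 81 (-2.48 ± 1.001), and pvalb6 had 10 and 0, against 34 and 30 (-2.69 ± 1.49). cnn3b had 16.3 and 13.7 CPM, against 6.15 and 11.05 CPM (0.80 ± 0.45). For cnn3a, tpm4b and cnn3b the nearest pair of fish from different genotypes differed less than the 2 heterozygous fish did.

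**Figure D5:**
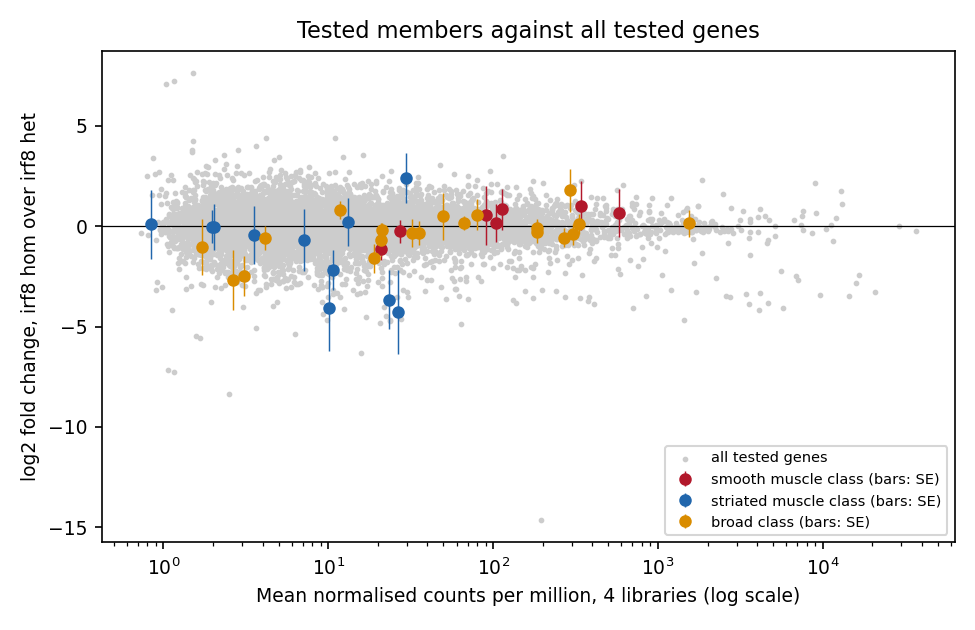
Each point is a tested gene, with its mean normalised CPM on the x axis (log scale) and its fitted log2 fold change of homozygous over heterozygous fish on the y axis; coloured points are members with SE bars and grey points all tested genes. The smooth class lies between -1.12 and 1.02, and the lowest members are the striated genes mylpfa, ckma and actc1b.

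Other genes of smooth muscle regulation and adhesion were read from a separate list. Of 70 listed, 45 were in the table and 36 were tested: 23 were higher and 13 lower in homozygotes, 0 were called, and the median log2 fold change was 0.26. The homozygous fish were both over the heterozygous fish in 7 (19.4%) and both under them in 1 (2.78%), where the shares over all tested genes were 19.9% and 19.3%. csrp1a, a gene of a LIM protein of the cytoskeleton, had the smallest unadjusted p, with 20.1 and 18.9 CPM in homozygotes, against 35.2 and 51.3 CPM in heterozygotes (-1.15 ± 0.36, edgeR adjusted p = 0.699). ptrfb, a caveolar coat gene, had 6.66 and 4.80 CPM, against 5.46 and 53.0 CPM, and pde5ab, a cyclic GMP phosphodiesterase gene, had 10.2 and 17.8 CPM, against 4.27 and 7.77 CPM. The first of these was high in heterozygous fish 2 alone, and the second was higher in both homozygotes. Homozygous fish 1 and heterozygous fish 2 both lay above the other fish in 17 of the 41 listed genes with at least 10 counts (41.5%). The share over all such genes was 18.1%. Named after their values were seen, csrp1b had 107 and 12.9 CPM, against 7.51 and 55.8 CPM, with the same high fish as acta2. By contrast srfa, the gene of serum response factor, which activates smooth muscle genes, had 3.11 and 6.92 CPM, against 3.24 and 2.08 CPM, and did not follow them.

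Of 75 listed genes of striated muscle outside the name rule, 61 were in the table and 21 were tested, with 9 higher, 12 lower, 0 called and a median of -0.38. Their highest library was heterozygous fish 2 in 30 of the 44 with at least 10 counts, against 31.4% of all such genes. The count threshold partly fixes this number, since genes that reach it through this fish alone are among them. The number without those genes is not given here. atp2a1l, a calcium pump gene, had 3.26 and 1.48 CPM in homozygotes, against 3.07 and 18.8 CPM in heterozygotes. hspb1, a small heat shock protein gene, had 8.14 and 3.97 CPM, against 6.999 and 30.5 CPM. jph1a, a junctophilin gene, went the other way, with 11.7 and 25.7 CPM, against 6.66 and 6.89 CPM (1.47 ± 0.50, edgeR adjusted p = 0.699).

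Some members of 1 family sit side by side, and how alike their sequences are was not analysed here. tnni2a.1, tnni2a.3 and tnni2a.4 lie on chromosome 25 between 30644593 and 30711249. pvalb9, pvalb3 and pvalb2 lie on chromosome 12 between 17574233 and 17590624, yet pvalb9 was at 778 and 126 CPM in homozygotes and 212 and 51.1 CPM in heterozygotes. Its neighbour pvalb3 had 0 counts in both homozygotes and 0 and 19 in the heterozygotes. These neighbours thus had different profiles across the fish.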

How the data were processed

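Per the file headers, the authors counted read pairs per gene with featureCounts (Subread 1.5.2, also in the submitters' processing notes), paired and reverse-stranded, over the exons of the UCSC danRer10 annotation; the deposited values are raw counts. The command has no option for multi-mapping reads. No aligner is stated in the labels or headers read here. Libraries were strand-specific and oligo-dT captured, per the labels' protocols. The authors' deposited table of 76 genes holds log2 fold changes, a signed fold, p-values with FDR, and a maximum group mean, kept as a score since no unit is stated, and not used.

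Genes passed filterByExpr of edgeR (at least 10 counts in enough libraries, 15 in total); their counts were scaled by TMM and tested with edgeR 4.0.16 (R 4.3.3) by the quasi-likelihood F test, genotype as the only term, on the whole table (9701 genes); the Benjamini-Hochberg adjusted p had to be under 0.05. The fit was run on simulated data to check the sign and size of its fold changes. How many true changes it would find with 2 fish per genotype is not given here. The SE is the one the F statistic implies. CPM uses TMM-scaled library sizes. Levels between genes are given per kilobase of the table's exon length. An exact permutation test with 2 against 2 fish cannot go below 0.333, so summed shares carry no p. The labels do not say whether the fish were siblings. The p-values set the genotype difference against the fitted spread between these animals, and the variation between families is not known. Members, classes and lists were chosen with earlier results of these data known. Of the 69 members 68 matched a RefSeq symbol and 1 a synonym (assembly GRCz12tu, names only). No sequences are printed.

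Named genes are irf8, the 8 most abundant members per length and the 5 with the smallest unadjusted p in each class, members in the authors' deposited table, members at the count threshold, and the 3 with the smallest p of each list. Those of the gut epithelium, pancreas, liver, and fibroblast and endothelium lists, and elavl4 of the enteric neuron list, are not given singly. Most values of other members were named after they were seen. Alternatives were DESeq2 1.42.0's size factors and Wald test, other count filters, the replicate number as a block, the pancreas and liver lists left out, each library left out, and an adjusted p of 0.1.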

Additional observations from a re-analysis of the deposited data

How the results depend on the processing

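With 2 fish per genotype, single libraries set the direction of most member values. No member was called in any alternative except without heterozygous replicate 1 (2 members, both lower). Over all genes the count of calls was 0, against 58 with DESeq2's Wald test, and 0 to 45 with each library left out; members ranged from 0 to 2. The striated median of -0.44 was -3.33 with no count filter and -3.64 with a mean of at least 1 CPM, where genes high in heterozygous replicate 2 alone enter. With each library left out it ranged from -4.44 to 1.08, the smooth median from -1.53 to 1.99 and the broad median from -0.53 to -0.054, over the genes each fit tested. The replicate block called 0 genes, and acta1a was -0.26 under it against 0.20. The deviations of same-numbered fish had r = 0.0240 across 9701 genes, which are not independent. With a single difference per genotype, this r cannot decide whether the numbers pair the fish. Ranges follow for the members that changed sign with a library left out, among the 26 rule-named genes with a fitted value, irf8 included. They ran from -2.42 to 1.77 for acta1a, from -0.96 to 3.33 for acta1b, from -1.46 to 2.54 for acta2, from -4.58 to 0.51 for actc1b, from -0.38 to 0.19 for actn4, from -6.86 to 6.11 for ckma. They ranged from -0.31 to 0.83 for ckmt1, from -1.80 to 3.97 for desmb, from -1.15 to 1.80 for myh11a, from -0.29 to 0.66 for myl12.1, from -1.72 to 2.40 for myl6, from -1.21 to 1.99 for myl9a. The range was from -0.81 to 0.73 for myl9b, from -11.53 to 0.89 for mylpfa, from -0.038 to 3.18 for pvalb9, from -1.61 to 2.49 for tagln, from -0.80 to 0.13 for tagln2, from -0.21 to 1.80 for tpm1. Other members changed sign too, among them actc1a (-3.04 to 3.37), tpm2 (-1.43 to 1.30), actn1 (-0.96 to 0.88), tpm4a (-1.29 to 0.22) and myh9a (-0.74 to 0.36). The 6.11 of ckma and the -11.53 of mylpfa come from fits in which the 1 fish left in a genotype had 0 counts, and measure no size. Of 155 values of the 26 rule-named genes under the other alternatives, 154 kept direction and call, and of 103 with a library left out, 76 did. Depth limits the low striated genes, many of which are at 0 in the other libraries.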
